A study of Mus musculus with 6 samples.

Results

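The transcripts described here encode the respiratory chain and the ATP synthase of the mitochondrial inner membrane. They were measured in calvarial osteoblasts, the bone-forming cells of the skull vault, from newborn mice. Members were picked by gene name (Nduf, Sdh, Uqcr, Cox, Atp5 and the mt- subunit genes, without names that mark a pseudogene by -ps) and by a minimum of 60 counts summed over the 6 libraries. The rule found 90 genes of the 29018 in the deposited table, 77 of them nuclear-encoded and 13 mitochondrially encoded. Their summed counts ran between 1588 for Ndufb1 and 3761459 for mt-Co1, and all 90 passed the filter on low counts.

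The groups were NDR1 KO osteoblasts (3 libraries) and WT osteoblasts (3 libraries), both from calvaria of neonatal mice and both taken through osteogenic differentiation in culture before polyA RNA was sequenced. NDR1 is a serine/threonine kinase encoded by Stk38. The labels give neither the design of the KO allele, the strain and the sex of the mice, nor whether replicates came from separate animals, so a p-value covers only how far libraries of a group vary, and that variation may be technical. Stk38 averaged 50.2 ± 2.31 CPM in KO and 76.6 ± 3.24 CPM in WT (SD, n = 3 each), where CPM is the count scaled to library size and TMM factor, and fell by 0.61 ± 0.05 on the log2 scale (SE, edgeR adjusted p = 8.10e-06). The table does not give a deleted part of the gene, so this level does not check the allele itself.

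Libraries held between 61461870 and 76159034 counts in KO and between 66308530 and 68395991 counts in WT. The osteoblast marker list was well represented, with summed levels of 51663 to 54194 CPM in KO and 69557 to 71309 CPM in WT. It was lower in KO for 7 of 11 genes and higher for 1. Genes on marker lists of other cells were called too: 10 of 12 macrophage genes were higher in KO (summed 973 to 1078 CPM, against 385 to 506 CPM in WT), and 6 of 7 adipocyte, 5 of 10 muscle, 3 of 8 osteoclast and 3 of 6 endothelial genes were lower. The called shares were 72.7% for osteoblast, 83.3% for macrophage, 85.7% for adipocyte, 50.0% for muscle, 37.5% for osteoclast and 50.0% for endothelial genes. Of all genes tested, 22.9% were called (11.2% higher and 11.7% lower, edgeR adjusted p under 0.05). In bulk RNA, fewer cells of a type and less RNA per cell cannot be told apart, and the part of these cell markers in the results below was not tested.

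Complexes I and II pass electrons from NADH and succinate to ubiquinone, complex III passes them on to cytochrome c, and complex IV gives them to oxygen. Complexes I, III and IV pump protons, and the ATP synthase, also called complex V, lets the protons flow back to make ATP. Complexes I, III, IV and V are built from both genomes, since the mitochondrial genome keeps a few hydrophobic core subunits and the nucleus supplies the rest, while complex II is nuclear-encoded throughout. Osteoblasts use both glycolysis and oxidative phosphorylation for their energy.

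The main question was whether the transcripts of this machinery differed between KO and WT, by complex and by genome. Of the 90 members, 0 were higher and 3 were lower in KO at an adjusted p under 0.05 (edgeR, 3.33%), against 22.9% of the 18221 genes tested (11.2% higher and 11.7% lower). The members lower in KO were Uqcrb of complex III, Atp5f1a of the ATP synthase and mt-Co1 of complex IV. At an unadjusted p under 0.05 there were 10 members, against 33.2% of all genes tested, and DESeq2 called the same 3 members. The KO and WT libraries did not overlap for 17 members (18.9%), 7 with KO above and 10 with KO below, against 38.2% of all genes tested.

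The size of the differences was small as well as their number. The 95% interval of the log2 change lay within 1.2-fold in either direction for 70 of 90 members (77.8%), against 30.9% of all genes tested. Among the 11737 genes with a mean CPM at least that of the lowest member, 48.0% had such an interval, closer to the members' share, while 29.9% were called, further from it. The median size of the log2 change was 0.054 for the members, 0.113 for those 11737 genes and 0.168 for all genes tested. For the other 20 members the interval reached beyond 1.2-fold.

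**Figure D1:**
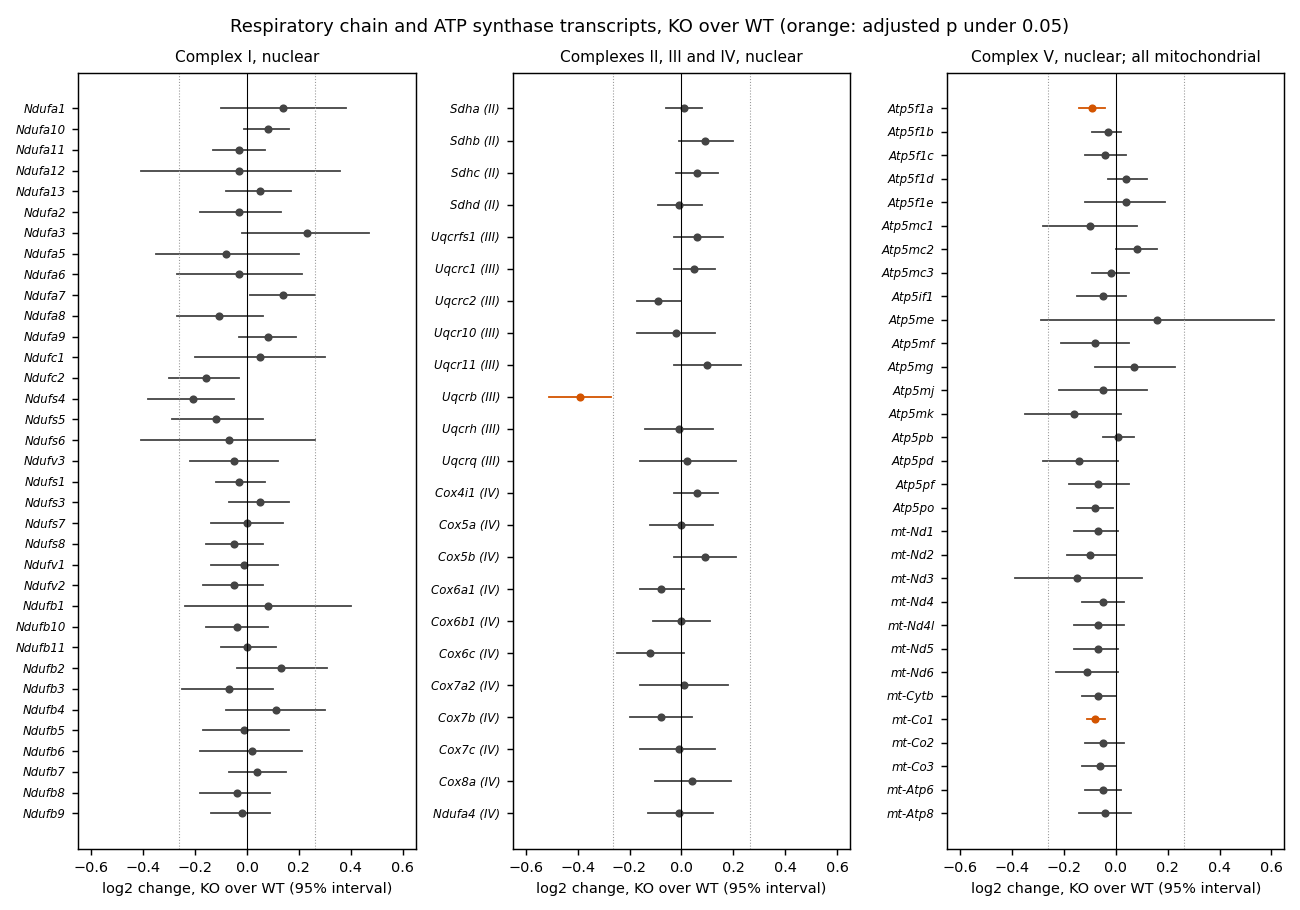
Log2 change of 89 of the 90 members, KO over WT, with its 95% interval (edgeR); orange marks an adjusted p under 0.05 and dotted lines mark 1.2-fold. Most intervals straddle 0, the members Uqcrb, Atp5f1a and mt-Co1 lie below it, and all 13 mitochondrially encoded genes have estimates a little below 0.

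Complex I holds the largest group of members, 36 nuclear and 7 mitochondrial, and none of them was called. The nuclear members had a median log2 change of -0.02, with 15 estimates above 0 and 21 below. Their summed level was 1137, 1130 and 1096 CPM in KO libraries and 1136, 1136 and 1104 CPM in WT libraries, so the groups overlapped and KO stood at 99.6% of WT.

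The nuclear core subunits, which carry the flavin and the iron-sulfur clusters that lead electrons to ubiquinone, were measured closely. The intervals of all 7 lay within 1.2-fold. Ndufs1, the largest iron-sulfur subunit, stood at 79.7, 79.2 and 86.2 CPM in KO and 84.2, 84.2 and 81.0 CPM in WT (log2 change -0.03 ± 0.04, SE). Its groups overlapped. Ndufv1, which binds the flavin and NADH, had a log2 change of -0.01 ± 0.06, and Ndufv2, its iron-sulfur partner, one of -0.05 ± 0.05. Ndufs7 and Ndufs8, the iron-sulfur subunits nearest to ubiquinone, had log2 changes of 0.00 ± 0.06 and -0.05 ± 0.05.

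The accessory subunits, which surround and stabilise the core, were less evenly measured. The log2 changes of the 18 accessory members ran between -0.21 for Ndufs4 and 0.23 for Ndufa3, and 7 of their intervals lay within 1.2-fold. Ndufs4, whose loss in mice gives a model of Leigh syndrome, had 19.4, 20.0 and 20.8 CPM in KO and 25.1, 23.7 and 21.0 CPM in WT. The groups did not overlap, but WT replicate 3 lay close to the KO libraries and the adjusted p was 0.0699. Without WT replicate 3 the log2 change was -0.28 and the adjusted p 0.0225. Ndufa3 had 7.89, 9.47 and 7.63 CPM in KO and 7.32, 7.17 and 6.86 CPM in WT, an adjusted p of 0.191. The 11 members of the B series, which sit in the membrane arm, had log2 changes between -0.07 for Ndufb3 and 0.13 for Ndufb2, and 8 of their intervals lay within 1.2-fold.

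Complex II, or succinate dehydrogenase, also takes part in the tricarboxylic acid cycle. None of its 4 subunits was called and all 4 intervals lay within 1.2-fold. Sdha, the flavoprotein that oxidises succinate, had 206, 207 and 206 CPM in KO and 202, 213 and 198 CPM in WT. Sdhb, the iron-sulfur subunit, had 65.6, 62.5 and 64.2 CPM in KO and 56.1, 62.3 and 61.8 CPM in WT (log2 change 0.09 ± 0.05, adjusted p = 0.214). Its groups were apart by a narrow gap, with WT replicate 1 the lowest. The membrane anchors Sdhc and Sdhd had log2 changes of 0.06 ± 0.04 and -0.01 ± 0.04.

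In complex III, 7 of 8 nuclear members had intervals within 1.2-fold and Uqcrb was the exception. The Rieske iron-sulfur protein Uqcrfs1 had 54.7, 53.0 and 52.4 CPM in KO and 52.8, 51.0 and 49.3 CPM in WT (log2 change 0.06 ± 0.04). The core proteins Uqcrc1 and Uqcrc2 had log2 changes of 0.05 ± 0.03 and -0.09 ± 0.04, with adjusted p of 0.370 and 0.137, and the highest KO library of Uqcrc2 lay just under the lowest WT library. Levels alone show a wider gap for Uqcrb, a small subunit that packs against cytochrome b: 24.6, 26.4 and 26.0 CPM in KO, against 33.6, 32.9 and 34.6 CPM in WT. The groups were well apart. Uqcrb stood at 76.1% of WT, a log2 change of -0.39 ± 0.05 (95% interval -0.51 to -0.27, adjusted p = 4.22e-04). It was called under every scaling and with any library left out.

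Reads of Uqcrb can be shared with a near-identical pseudogene, so its sequence bears on this value. In GENCODE M21 transcripts (GRCm38), Gm2962 (chr1:170925309-170925644, minus strand) matched the whole coding sequence of Uqcrb (chr13:66900617-66905378, minus strand) over 336 bases at 98.2% identity. They differ at 6 positions counted from 1 at the first base of the Uqcrb start codon, T117A, G180T, G215T, A239C, G309A and G312A, with the Uqcrb base first. The longest run without a difference is 116 bases. Positions 193 to 312 are given for both, 5′ to 3′, because 4 of the 6 differences fall there and the rest of the stretch is the same in both genes. Capitals mark the positions that differ.
Uqcrb: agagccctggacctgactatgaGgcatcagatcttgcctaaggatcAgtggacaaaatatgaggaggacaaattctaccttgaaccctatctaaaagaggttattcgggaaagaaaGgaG
Gm2962: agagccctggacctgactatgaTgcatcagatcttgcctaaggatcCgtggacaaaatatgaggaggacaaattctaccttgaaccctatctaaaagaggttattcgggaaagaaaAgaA

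Gm2962 moved the other way. It had 4.88, 11.3 and 6.42 CPM in KO, against 3.42, 1.40 and 1.80 CPM in WT, a log2 change of 1.77 ± 0.36 (adjusted p = 0.00545). Every KO library was above every WT library, with KO replicate 2 far above the other KO libraries. The Gm2962 call was lost in 1 of 15 alternative fits, limma on FPKM without a filter (adjusted p = 0.0561). With the counts of all 4 copies of Uqcrb in the table added to it, an alternative chosen after seeing the data, the sum was 30.2, 38.1 and 33.1 CPM in KO and 37.5, 35.0 and 37.1 CPM in WT. The groups then overlapped. The log2 change of the sum was -0.11 ± 0.08 (95% interval -0.29 to 0.06, adjusted p = 0.374), in a fit that called 23.0% of all genes. The lower Uqcrb count is therefore uncertain as a measure of its transcript, since the counting method is not given in the sources used here.

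**Figure D2:**
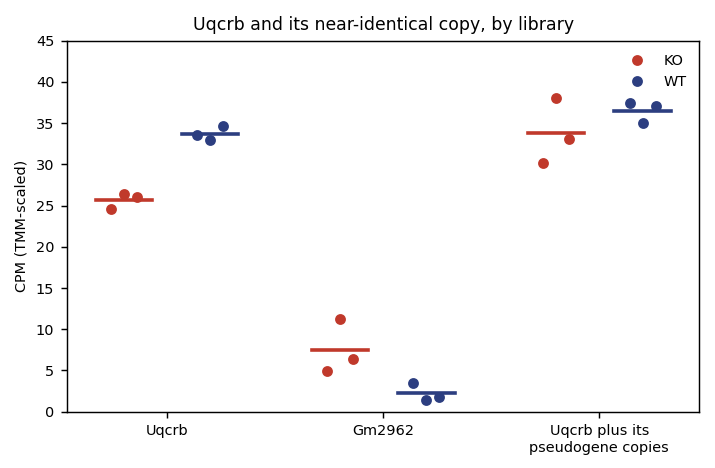
Level in CPM of Uqcrb, of its pseudogene copy Gm2962, and of Uqcrb with the counts of its 4 copies added; points are libraries and bars are group means (n = 3 each). KO lies below WT for Uqcrb and above WT for Gm2962, and the groups overlap for the sum.

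None of the 11 nuclear members of complex IV was called, and all 11 intervals lay within 1.2-fold. The largest nuclear subunit Cox4i1, a regulatory one, had 126, 133 and 121 CPM in KO and 126, 119 and 122 CPM in WT (log2 change 0.06 ± 0.04). Cox5a, a subunit on the matrix side, had a log2 change of -0.00 ± 0.05, and the zinc-binding Cox5b one of 0.09 ± 0.05 (adjusted p = 0.301). Estimates ran between -0.12 for Cox6c and 0.09 for Cox5b, and all but Cox7b had overlapping groups. Ndufa4, named for complex I but held by complex IV, is counted here and had a log2 change of -0.01 ± 0.05.

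The ATP synthase holds Atp5f1a, the nuclear member with the highest mean FPKM in both groups. Atp5f1a and Atp5f1b, the alpha and beta subunits that form its catalytic head, averaged 161 ± 0.999 and 143 ± 2.33 FPKM in KO and 166 ± 3.97 and 141 ± 1.36 FPKM in WT (SD, n = 3 each), on the authors' length-scaled unit. Atp5f1a had 522, 528 and 531 CPM in KO, against 555, 575 and 552 CPM in WT. Every KO library was lower, at 94.0% of WT (log2 change -0.09 ± 0.02, 95% interval -0.14 to -0.04, adjusted p = 0.0220). The call was lost without KO replicate 1 (adjusted p = 0.0905), KO replicate 2 (0.0530) or WT replicate 2 (0.0665), without the count filter (0.0635), without TMM scaling (log2 change -0.04, adjusted p = 0.252) and with limma on FPKM (log2 change -0.04, adjusted p between 0.264 and 0.390). Atp5f1b and the gamma subunit Atp5f1c, the rotating shaft, had log2 changes of -0.03 ± 0.02 and -0.04 ± 0.04 and were not called.

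The remaining nuclear members of the ATP synthase were not called either. Of all 18, 12 estimates were below 0 and 6 above, and their summed level of 2131, 2168 and 2162 CPM in KO lay under the 2232, 2213 and 2212 CPM in WT in every library. It stood at 97.1% of WT. The same sum over all genes tested stood at 96.7%, a value set by the TMM factors alone and not a measured background. On library totals without TMM, the sum of the 18 members was 2172, 2212 and 2184 unscaled CPM in KO and 2202, 2172 and 2170 in WT, and the groups overlapped. The alpha and beta subunits hold most of that sum. The peripheral stalk, which keeps the head from turning, had log2 changes between -0.14 for Atp5pd and 0.01 for Atp5pb. Atp5po, the stalk member at the top of the head, had 98.9, 97.0 and 95.6 CPM in KO and 103, 102 and 103 CPM in WT (adjusted p = 0.0908). Atp5if1, which inhibits the enzyme when it would break down ATP, had a log2 change of -0.05 ± 0.04.

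The 13 mitochondrially encoded mRNAs all come from long transcripts of a small circular genome that are cut, mostly at tRNAs, into mature messages. In mammals, mt-Atp8 and mt-Atp6 stay together on a shared message, as do mt-Nd4l and mt-Nd4. In all, 4 neighbouring pairs share bases in the table's coordinates, of which mt-Atp8 and mt-Atp6 share the most. The 43 shared bases (chrMT:7927-7969, plus strand, GENCODE M21) are given because a read from them belongs to both genes. The capitals mark the mt-Atp6 start codon.
mt-Atp8 and mt-Atp6: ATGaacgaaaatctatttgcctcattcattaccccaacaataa

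Of these 13 genes only mt-Co1, the catalytic subunit of complex IV that binds the heme and copper at which oxygen is reduced, was called. It had 8821, 9029 and 8706 CPM in KO, against 9325, 9358 and 9347 CPM in WT. The WT libraries were nearly level and all 3 KO libraries lay under them, at 94.7% of WT (log2 change -0.08 ± 0.02, 95% interval -0.11 to -0.04, adjusted p = 0.00496). The call held with any library left out, but on library totals without TMM the log2 change was -0.03 (adjusted p = 0.267), and with limma on FPKM it was also -0.03 (adjusted p between 0.444 and 0.859). The estimate is close in size to the shift between these scalings, which moved the median of all genes by 0.05.

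The other 12 estimates were also below 0, but 2 of the 13 were above 0 on library totals without TMM. They ran between -0.15 ± 0.11 for mt-Nd3 and -0.04 ± 0.05 for mt-Atp8, and 12 of the 13 intervals lay within 1.2-fold. The median over the 13 was -0.07, against 0.00 for all genes and -0.01 for the nuclear members, and on library totals it was -0.02, against 0.05 and 0.04. These genes share their precursor transcripts and their library, so they are not 13 separate observations.

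By role, mt-Cytb, the electron-carrying core of complex III, had 2795, 2891 and 2732 CPM in KO and 2936, 2841 and 3051 CPM in WT (log2 change -0.07 ± 0.03, adjusted p = 0.122). The oxidase subunits mt-Co2 and mt-Co3 had log2 changes of -0.05 ± 0.04 and -0.06 ± 0.03. The ATP synthase subunit mt-Atp6, which forms the proton path, had -0.05 ± 0.03. The proton-pumping complex I subunits mt-Nd1, mt-Nd2, mt-Nd4, mt-Nd4l, mt-Nd5 and mt-Nd6 had log2 changes between -0.11 for mt-Nd6 and -0.05 for mt-Nd4, with adjusted p between 0.148 and 0.381. All these groups overlapped.

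In the authors' FPKM, which allow levels to be compared between genes, mt-Co1 stood highest at 5489 ± 135 in KO and 5599 ± 18.5 in WT (SD, n = 3 each). mt-Cytb followed at 2350 ± 81.3 in KO and 2381 ± 83.7 in WT, then mt-Atp8 and mt-Atp6, whose libraries overlapped each other. The lowest was mt-Nd3, at 91.2 ± 9.42 in KO and 97.5 ± 15.6 in WT. mt-Nd6, the only one of the 13 read from the other strand, averaged 659 ± 55.8 in KO and 688 ± 29.6 in WT. The order between genes is uncertain because copies of mitochondrial sequence on chromosome 1 hold as many counts as some members: Gm28437 had 100% of the counts of mt-Co3, Atp6-ps 106% of mt-Atp6, Gm28661 99.5% of mt-Co2 and Gm29216 6.33% of mt-Co1. The level of mt-Nd3 is uncertain too, since Gm28438 had 92.8% of its counts. Gm10222 had 100% of the counts of mt-Nd4l and Gm28439 46.4% of mt-Nd4. With copies added, mt-Co1 remained called (log2 change -0.08, adjusted p = 0.00315) and none of the other 12 was. This could not check the calls, because the estimates of these copies had the same sign as those of their members. Gm29216 had a log2 change of -0.12 ± 0.03 (edgeR adjusted p = 0.0176). Gm28437, Atp6-ps and Gm28661 had -0.06, -0.06 and -0.05, against -0.06, -0.05 and -0.05 for mt-Co3, mt-Atp6 and mt-Co2. Gm10222, Gm28439 and Gm28438 had -0.07, -0.02 and -0.05, against -0.07, -0.05 and -0.15 for mt-Nd4l, mt-Nd4 and mt-Nd3. With its copy added, mt-Nd3 had a log2 change of -0.10 ± 0.10.

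**Figure D3:**
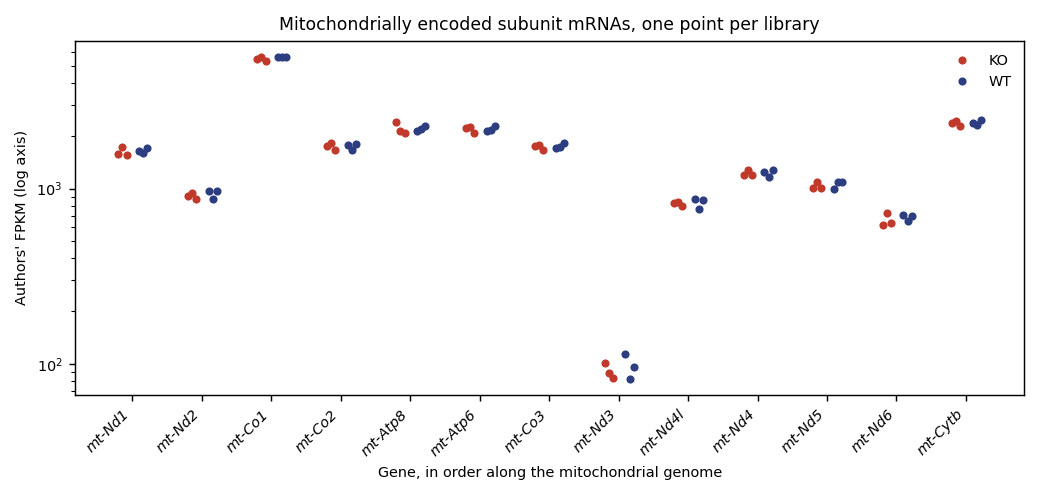
The authors' FPKM (log axis) of the 13 mitochondrially encoded mRNAs, one point per library, genes in their order along the mitochondrial genome. KO and WT points lie beside each other for every gene, mt-Co1 is highest and mt-Nd3 lowest.

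As a share of all counts, the 13 mitochondrial mRNAs made up 2.36%, 2.45% and 2.30% in KO and 2.40%, 2.36% and 2.45% in WT, so the groups overlapped. The counts of the copies named above are left out of these shares and of the ratio to nuclear counts below. Both are therefore uncertain as levels. On the TMM-scaled level, the sum of the 13 mRNAs was 23165, 24027 and 22748 CPM in KO and 24366, 24065 and 25019 CPM in WT. The groups did not overlap, but KO replicate 2 and WT replicate 2 were nearly level. This sum stood at 95.2% of WT. Over all genes tested the value was 96.7%, which is set by the TMM factors alone. On library totals the nuclear sums of complex II (469.9, 466.0 and 456.9 unscaled CPM in KO, against 439.3, 450.7 and 426.7 in WT) and of complex III (456.7, 451.7 and 449.4 in KO, against 449.2, 448.8 and 435.6 in WT) were apart instead, with KO above. So which complexes stood apart, and in which direction, changed with the scaling. The nuclear members made up 0.4858%, 0.4892% and 0.4775% in KO and 0.4814%, 0.4751% and 0.4684% in WT. The ratio of mitochondrial to nuclear counts was 4.86, 5.01 and 4.81 in KO and 4.99, 4.97 and 5.24 in WT, also overlapping. The mitochondrial genes varied together within a group: KO replicate 2 was the highest of the KO libraries for 11 of 13 genes, KO replicate 3 the lowest for 10, and WT replicate 3 the highest of the WT libraries for 9. Without KO replicate 2, mt-Nd1 and mt-Nd6 were also called lower, without WT replicate 1 mt-Nd5, and without WT replicate 2 mt-Cytb, mt-Nd2 and mt-Nd4l.

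**Figure D4:**
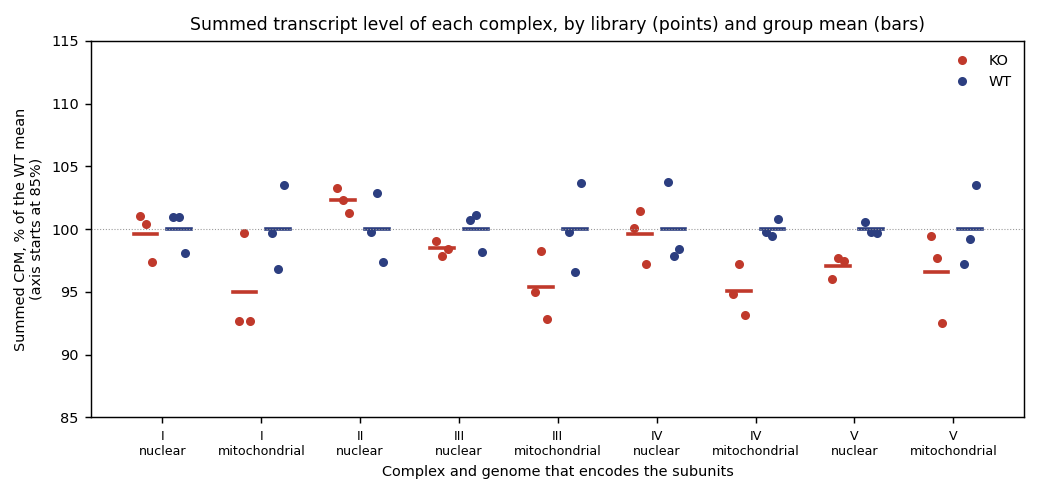
Summed level of the members of each complex and genome, as a percentage of the WT mean (the axis starts at 85%); points are libraries and bars group means (n = 3 each). The group means of KO lie between 95% and 102% of WT. The same sum over all genes tested is 96.7% of WT, a value set by the TMM factors alone. On this TMM-scaled level the libraries are fully apart for complex IV, mitochondrial, and complex V, nuclear. On library totals without TMM both overlap.

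What the nuclear members share in sequence was examined in their promoters, taken from RefSeq (GRCm38.p6) as 250 bases before to 50 after the gene's start. A promoter was matched for 50 of 77 nuclear members. Of the 18 nuclear ATP synthase members only Atp5pb was among them, so the shares below hardly cover that complex. The letters GCGCATG, a core of the NRF-1 site, were found on either strand for 10 genes (20.0%), against 4.41% of the 27025 genes with a promoter. A gene counted when any of its listed promoters held the letters, and the number of promoters per gene was not taken into account. The 27025 genes were not limited to genes expressed here, and the shares among expressed genes were not taken. CCGGAAG, a core of the ETS site bound by the factor NRF-2 (GABP), was found for 11 genes (22.0%), against 9.93%. AAGATGG, a core of the YY1 site, was found for 9 (18.0%), against 7.28%. None of these motifs contains another. At least 1 of the 3 was found for 25 genes (50.0%), against 19.5%. A match describes letters only, not binding.

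2 promoters show where these letters stand. Sdhb (chr4:140961021-140961320, plus strand) has an NRF-1 match, read on the other strand as CATGCGC, and an ETS match. Ndufs7 (chr10:80249199-80249498, plus strand) has a YY1 match within the 50 bases after its start. Capitals mark the matches.
Sdhb: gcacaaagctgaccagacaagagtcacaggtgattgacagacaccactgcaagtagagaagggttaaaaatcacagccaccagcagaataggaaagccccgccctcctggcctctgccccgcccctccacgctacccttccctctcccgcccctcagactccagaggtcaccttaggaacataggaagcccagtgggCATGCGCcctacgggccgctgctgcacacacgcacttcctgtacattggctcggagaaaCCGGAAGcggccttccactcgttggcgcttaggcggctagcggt
Ndufs7: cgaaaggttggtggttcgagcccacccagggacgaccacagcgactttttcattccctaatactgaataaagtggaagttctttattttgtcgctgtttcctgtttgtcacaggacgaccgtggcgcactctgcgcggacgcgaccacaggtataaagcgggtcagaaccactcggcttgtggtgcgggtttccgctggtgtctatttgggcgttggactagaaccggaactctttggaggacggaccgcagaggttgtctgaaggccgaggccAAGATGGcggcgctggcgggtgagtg

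Genes around the chain were followed from lists. Of 16 regulators of mitochondrial biogenesis, 0 were higher and 2 were lower in KO (12.5%), a smaller share than the 22.9% of all genes tested. Ppargc1a, a coactivator of nuclear genes for mitochondria, had 2.58, 2.09 and 2.03 CPM in KO, against 4.10, 4.22 and 4.89 CPM in WT (log2 change -0.98 ± 0.17, adjusted p = 0.00177). Nrf1, which encodes NRF-1, had 23.0 ± 0.449 CPM in KO and 26.4 ± 0.645 CPM in WT (-0.20 ± 0.05, adjusted p = 0.0254). Both had groups that did not overlap. The Nrf1 call was lost in 10 of 16 alternatives: with DESeq2 (adjusted p = 0.0535), on library totals without TMM (0.0822), with limma on FPKM (0.151 to 0.240), and without any 1 library other than WT replicate 3 (0.0530 to 0.0822). Of 18 genes for mitochondrial DNA maintenance and transcription, 1 was higher and 1 lower: Rrm2b, which supplies deoxynucleotides, and Polg, the mitochondrial DNA polymerase (log2 change 0.36 ± 0.09 and -0.20 ± 0.05), which is 11.1% of the list. The Rrm2b call was lost without KO replicate 3 (adjusted p = 0.0553) and with limma without a filter (0.0803), and the Polg call with limma on FPKM (0.0677 to 0.112).

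Alternative isoforms of the subunits, which the rule leaves out, were tested for the 5 that passed the count filter. The called share was 40.0%, against 22.9% of all genes tested, and rests on few genes. Of these, Cox6b2, known as a testis isoform of complex IV, was higher: 14.4, 11.5 and 10.1 CPM in KO, against 4.54, 4.23 and 3.93 CPM in WT (log2 change 1.50 ± 0.14, adjusted p = 2.67e-05). Ndufa4l2, known to be induced by hypoxia, was lower: 1.87, 2.55 and 2.09 CPM in KO, against 4.57, 5.41 and 4.28 CPM in WT (-1.13 ± 0.18, adjusted p = 9.59e-04). Their counterparts among the members, Cox6b1 and Ndufa4, had log2 changes of 0.00 ± 0.05 and -0.01 ± 0.05.

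Assembly factors were mostly not called. The shares below stand against 22.9% of all genes tested (11.2% higher and 11.7% lower). None of 15 for complex I was called, with a median log2 change of 0.12. Of 31 for complexes II to V, 2 were higher (6.45%). These were Sdhaf2, which helps to insert the flavin of Sdha, and Tmem70, needed for the ATP synthase (0.17 ± 0.05 and 0.16 ± 0.05). The Tmem70 call was lost in 8 of 16 alternatives, among them DESeq2 (adjusted p = 0.0587), no count filter (0.0554) and the removal of any 1 library other than WT replicate 3 (0.0806 to 0.138). The Sdhaf2 call was lost without KO replicate 2 or 3 or WT replicate 2 or 3 (0.0739 to 0.0899). Of 24 genes for import and mass, 3 were higher (12.5%, near the 11.2% of all genes tested). Among them were the phosphate carrier Slc25a3 (403 ± 10.8 CPM in KO and 366 ± 4.23 CPM in WT, log2 change 0.14 ± 0.03) and the translocase subunit Timm17a (0.17 ± 0.05). The Timm17a call was lost without any 1 library other than WT replicate 1 (adjusted p between 0.0549 and 0.0920). Of 18 tricarboxylic acid cycle genes, 1 was called (5.56%). Idh2, the NADP-dependent mitochondrial isocitrate dehydrogenase, was lower (119 ± 7.99 CPM in KO and 152 ± 5.72 CPM in WT, log2 change -0.36 ± 0.05).

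Of 17 genes for mitophagy and dynamics, 2 were higher and 3 lower (29.4%), near the 22.9% of all genes tested. Pink1, a kinase that marks damaged mitochondria, had 67.1, 67.7 and 63.4 CPM in KO, against 86.0, 86.1 and 85.8 CPM in WT (log2 change -0.38 ± 0.04, adjusted p = 3.63e-05). Its groups did not overlap. Of 16 electron carriers and their oxidoreductases (12.5% called), Sqor was higher (0.35 ± 0.11) and Etfa lower (-0.20 ± 0.04). Of 18 genes for mitochondrial RNA processing (5.56% called), Angel2 was lower (-0.19 ± 0.06). The Angel2 call was lost in 11 of 16 alternatives, among them library totals without TMM (log2 change -0.15, adjusted p = 0.121), no count filter and the removal of any 1 library other than WT replicate 3 (0.0723 to 0.162). The Sqor call was lost in 7 of 16, among them no count filter (0.0801) and the removal of KO replicate 1 or 2 or WT replicate 1 or 3 (0.0557 to 0.157). Among ribosomal protein genes, 4 of 77 mitochondrial ones were higher and 1 lower (6.49%), and 6 of 87 cytosolic ones were higher and 3 lower (10.3%). Both shares lie below the 22.9% of all genes tested.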

How the data were processed

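PolyA RNA of 3 KO and 3 WT libraries was sequenced. The authors deposited whole-number counts per gene and FPKM per gene, per the file headers. The submitters' processing notes name cutadapt 1.9, HISAT2 2.0.4 and StringTie 1.3.4d. The counting method and strandedness are not given in the sources used here, and the notes list a human build, so coordinates printed come from GENCODE M21 (GRCm38) or RefSeq.

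Counts were tested over all genes with edgeR 4.0.16 in R 4.3.3 (two-sided quasi-likelihood test without covariates, TMM scaling, filterByExpr and Benjamini-Hochberg adjustment), and the call limit was an adjusted p of 0.05. The common biological coefficient of variation was 12.6%. DESeq2 1.42.0 and limma 3.58.1 on log2(FPKM + 1) were alternatives, and the script was tested on simulated data. Copies were sought with blastn 2.17.0 among pseudogenes (at least 90% identity over 150 bases). Intervals reflect counting error and variation among the libraries at hand.

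Members and lists were chosen with earlier results of these data known. Genes are named by rule: all mitochondrial members, core nuclear subunits, up to 3 called members per complex and direction, and up to 2 called genes per other list, by lowest p. Ndufs4, Ndufa3, Gm2962 and the other members named were added after seeing values. A gene of the members and a gene of a list are not reported here by name.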

Additional observations from a re-analysis of the deposited data

How the results depend on the processing

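Of 2001 values of 126 followed genes under 16 alternative fits, 1911 stayed on their side of the threshold, 66 lost a call, 24 gained one and 0 calls changed sign. The counts of called members that moved were as follows, with the cause not tested. On library totals without TMM, 3 nuclear members were called higher (Atp5mc2, Ndufa10, Ndufa7), 1 lower (Uqcrb), and 0 mitochondrial ones lower. With limma on log2(FPKM + 1) or log2(FPKM + 0.1), 5 nuclear members were higher (also Cox5b and Uqcr11), 1 lower and 0 mitochondrial ones lower; with no filter, 4, 1 and 0. Leaving out Ndufa4 and Atp5if1, which are no subunit of the complex their name gives, changed no count. With the replicate block, the calls of Sdhaf2, Tmem70, Timm17a, Sqor and Angel2 were lost (adjusted p between 0.0540 and 0.0710). Without the count filter 1 nuclear member was lower, and with the copies added also 1. Leaving out 1 library gave 1 to 3 nuclear and 1 to 4 mitochondrial members lower, and between 3317 and 3576 genes in all, against 4179. Without the scaling by TMM, 22 members had the other sign, and 63.0% of all calls were higher in KO, against 49.0%; with limma it was 64.4%. The replicate numbers did not pair the libraries (correlation of deviations -0.0545, -0.0171 and 0.004 for the same numbers), and with the replicate block 3888 genes and the same 3 members were called. The effect of depth was not tested.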

Other observations

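Of 18 mitochondrial rRNA and tRNA genes tested, 6 were lower and 0 higher in KO (33.3%), against 22.9% of all genes tested called and 11.7% lower. mt-Th, the histidine tRNA, had 0.183, 0.207 and 0.312 CPM in KO, against 3.21, 0.807 and 1.18 CPM in WT (log2 change -2.87 ± 0.53, adjusted p = 0.00297). mt-Ts2, a serine tRNA, had 0.157, 0.144 and 0.169 CPM in KO, against 2.19, 0.594 and 0.775 CPM in WT (-2.90 ± 0.55, adjusted p = 0.00324). WT replicate 1 was the highest for both and every WT library was above every KO library. The levels are low, and polyA selection is not designed to capture tRNAs.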
